A study of Homo sapiens with 6 samples.

Results

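The genes described here are the 38 nuclear-encoded subunits of complexes III, IV and V of the respiratory chain and cytochrome c, measured in HepG2, a long-established cell line from a human liver cancer. They were taken from a list of gene symbols by the complex they belong to, with no threshold on measured values, and all 38 were found among the 57500 genes of the count files. They comprise 9 genes of complex III, 1 of cytochrome c, 12 of complex IV and 16 of complex V.

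RNA was sequenced from 6 cultures of unmodified (wild-type) HepG2 cells, 3 given vehicle and 3 given glycine (10 mM) for 24 h. Standard culture medium already contains glycine, so the comparison is between added glycine and the glycine of the medium. The study defines its replicates as separate experiments on different days. It also states that its cell-based assays had control and treated samples on every such day. Whether the replicate numbers mark these days is not given, and the main test used no pairing. The series bears on cyanide that cells make from glycine, and cyanide is a classical inhibitor of complex IV, so the comparison here asks whether added glycine changed the transcript levels of that complex and its neighbours.

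Complex III passes electrons from ubiquinol to cytochrome c, a small heme protein that carries them to complex IV. Complex IV, cytochrome c oxidase, reduces oxygen to water. Complexes III and IV pump protons across the inner mitochondrial membrane, and complex V, the ATP synthase, uses the proton gradient to make ATP. A few subunits of these complexes, among them the catalytic core of complex IV, are encoded by the mitochondrial genome. The others are nuclear genes, whose shared transcriptional regulators include NRF1, the ETS factor GABP, the zinc finger factor YY1 and the coactivators of the PGC-1 family.

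ATP5MC1 was the only member called higher with glycine, a call that held in 2 of 6 fits that left out 1 library. The gene has a pair of sister genes that encode the same mature c subunit, the protein of the rotating ring of complex V. The last 77 residues encoded by ATP5MC1, ATP5MC2 and ATP5MC3 were identical in GENCODE release 29, although their coding bases differed at 27 of 231 positions between ATP5MC1 and ATP5MC2 and at 46 of 231 between ATP5MC1 and ATP5MC3. Reads of the shared part can therefore be told apart by these differences. The first 60 of these coding bases, which end 171 bases before the stop codon, are shown because they hold part of the differences that separate the reads of the 3 genes. Capitals mark the 18 positions at which the 3 genes are not all alike. The positions are on GRCh38, chr17:48895216-48895275 (plus strand) for ATP5MC1, chr12:53669207-53669266 (minus strand) for ATP5MC2 and chr2:175179116-175179175 (minus strand) for ATP5MC3.
ATP5MC1: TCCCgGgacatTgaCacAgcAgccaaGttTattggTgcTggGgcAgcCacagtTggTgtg
ATP5MC2: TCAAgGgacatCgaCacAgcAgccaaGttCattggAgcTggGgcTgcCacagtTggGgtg
ATP5MC3: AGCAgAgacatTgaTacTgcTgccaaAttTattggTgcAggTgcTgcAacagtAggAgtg

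The promoters of the members were compared with those of other genes because the regulators named above bind short, known sequences. Promoter sequences from RefSeq (GRCh38.p14), from 250 bases before to 50 after the start of transcription, were matched for 30 of the 38 members and for 15843 protein-coding genes. The letters GCGCANGCG, bound by NRF1, were found on either strand for 10 of 30 members (33.3%) and for 12.55% of all coding genes. CCGGAAG, the core bound by ETS factors such as GABP, was found for 13 members (43.3%) and for 16.5% of all coding genes. AAGATGG, the core bound by YY1, was found for 8 members (26.7%) and for 7.90% of all coding genes. The last pair can overlap in a shared run of letters. At least 1 of the 3 was present for 22 members (73.3%) and for 31.4% of all coding genes. A match is a description of the letters and not evidence of binding. For ATP5MC1 the window held none of the 3 runs of letters.

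Stretches of 30 bases before the start of transcription are shown for 6 members with 1 of these runs, in capitals, to show the runs in their surroundings. The first 3 are subunits of complexes III and IV with chr19:29213163-29213192 (minus strand) for UQCRFS1, chr5:132866576-132866605 (plus strand) for UQCRQ and chr2:97646018-97646047 (plus strand) for COX5B. The others are chr11:63974590-63974619 (plus strand) for COX8A, chr10:7788141-7788170 (plus strand) for ATP5F1C and chr17:75047053-75047082 (minus strand) for ATP5PD. The NRF1 letters are marked for UQCRFS1 and ATP5F1C, where those of ATP5F1C read as a match on both strands, and the ETS letters for the rest.
UQCRFS1: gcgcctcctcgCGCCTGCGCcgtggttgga
UQCRQ: aaatggtatctcCCGGAAGttacctcacga
COX5B: cccgcccCCGGAAGtccctcctgtctctgc
COX8A: ccagctccagaaCTTCCGGccagcgcagcc
ATP5F1C: gctggggagcttcgGCGCATGCGCgctgag
ATP5PD: cccgggaagataCTTCCGGaaccagccctc

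The libraries held between 31795489 and 58815986 counts, the largest being glycine replicate 2, and the members took 0.566% to 0.625% of them. Each member had between 853 and 43992 counts in a library, and all 38 passed the filter on low counts. Of 15492 genes tested, 1040 were called higher and 1013 lower with glycine (quasi-likelihood test of edgeR, two-sided, Benjamini-Hochberg adjusted p under 0.05). All 9 hepatocyte markers examined were expressed, with ALB, the albumin gene, among them. TTR and APOA1 were among the genes called lower (log2 changes -0.32 and -0.26, edgeR). Of 9 markers of other cell types, 5 were tested and CD3E had no count, while the summed level of the 9, in CPM (counts scaled to a common library size), was 8.86 to 9.54 with vehicle and 10.8 to 11.9 with glycine. The sum mixes directions. Mean CPM with vehicle and with glycine was 2.15 and 4.38 for COL1A1 and 1.33 and 2.07 for CD68. It was 4.39 and 3.94 for PECAM1 and 0.584 and 0.258 for VWF. COL1A1 and CD68 were called higher and VWF lower (log2 changes 1.03, 0.63 and -1.18), and their part in the results below was not tested.

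Of the 38 members, 1 was called higher with glycine (2.63%) and 0 lower, against 6.71% of all tested genes called higher and 6.54% called lower. An unadjusted p under 0.05 was reached by 6 members (15.8%), ATP5MC1, ATP5F1D, CYCS, ATP5PD, COX6C and UQCRB, and by 27.3% of all tested genes. The DESeq2 Wald test and limma-voom each also called 1 member higher and 0 lower. The fitted log2 changes, glycine minus vehicle, ranged from -0.19 for COX6C to 0.34 for ATP5MC1, with 20 positive, 18 negative and a median of 0.0090. The median over all tested genes was 0.0035. Values are relative to the other RNA of a library. A change in the number of cells, or in total RNA per cell, would not show in them. In RNA from whole cultures, a change in every cell and a change in some cells cannot be told apart.

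**Figure D1:**
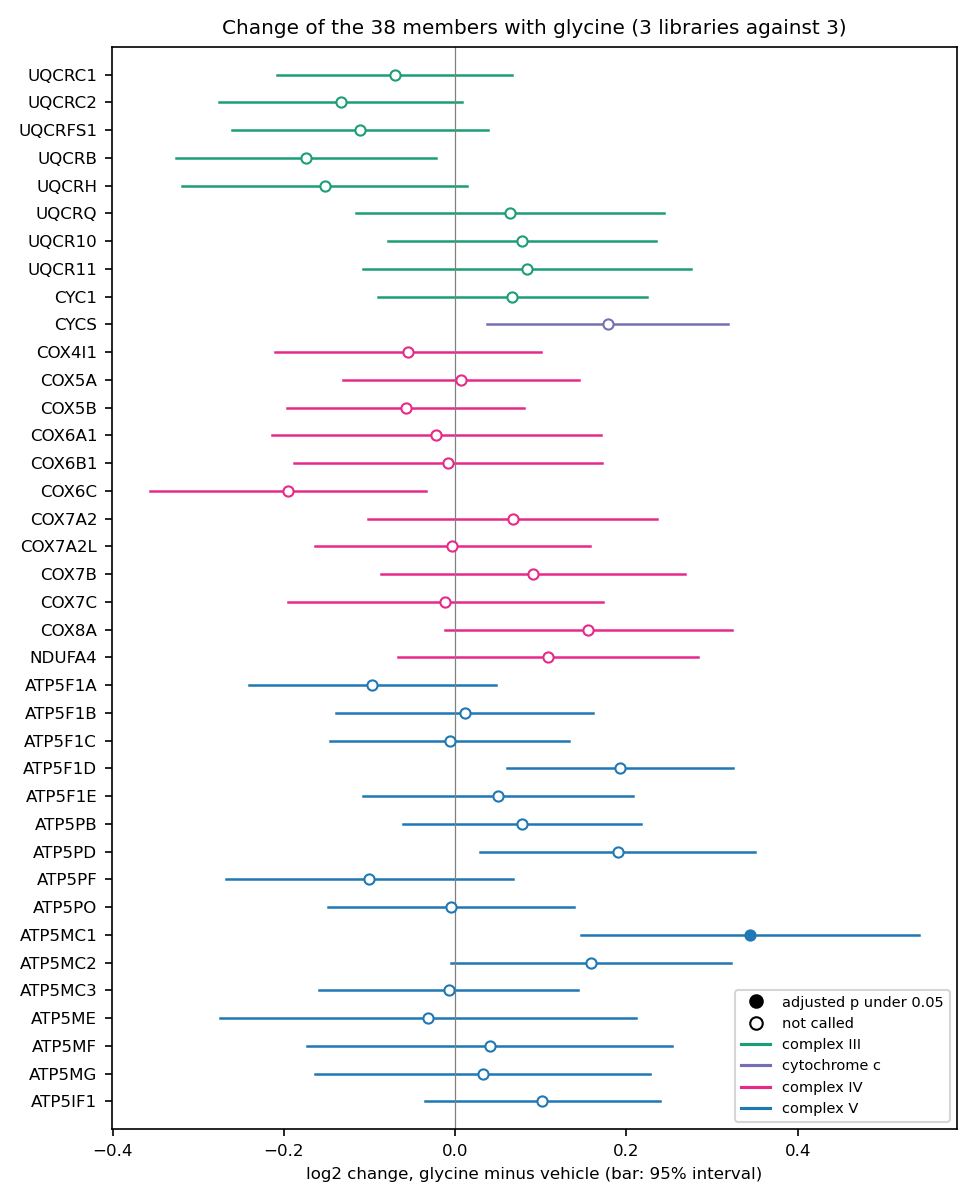
The fitted log2 change of each member (glycine minus vehicle, 3 libraries against 3) is plotted as a point with its 95% interval, coloured by complex, and filled points have an adjusted p under 0.05 (edgeR). ATP5MC1, at 0.34, is the only filled point, and the intervals of 32 of the 38 members cross 0.

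Each interval gives the range of changes that the fit allows for 1 gene, and the intervals were not widened to hold for all members together. The 95% intervals of all 38 members lay within a 1.5-fold change in either direction, and those of 23 lay within 1.2-fold. The widest reach was that of ATP5MC1, whose upper bound was 1.46-fold. The interval extended a median of 0.16 on the log2 scale to each side of the estimate for the members and 0.20 for all tested genes. Among the members, 5 had every glycine library above every vehicle library (13.2%) and 3 had every glycine library below (7.89%), where 17.2% and 14.4% of all tested genes did so. The 5 were ATP5MC1, ATP5F1D, ATP5PD, ATP5IF1 and CYCS, and the 3 were UQCRC2, COX6C and ATP5F1A.

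Many members had their highest level in the same library. Glycine replicate 2 held the highest CPM of 24 members, vehicle replicate 3 that of 8 and vehicle replicate 2 that of 6. The same counts were not made over all tested genes, so whether this is particular to the members was not tested. The median deviation of the 38 members from their own means, on the log2 scale, was 0.14 in glycine replicate 2 and 0.072 in vehicle replicate 3, and lay between -0.065 and -0.034 in the other 4 libraries. Over all tested genes that median lay between -0.0041 and 0.0098 in every library. The coefficient of variation between replicates had a median over the members of 5.33% with vehicle and 8.57% with glycine. Without glycine replicate 2 the median log2 change of the members was -0.032 and no member was called.

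**Figure D2:**
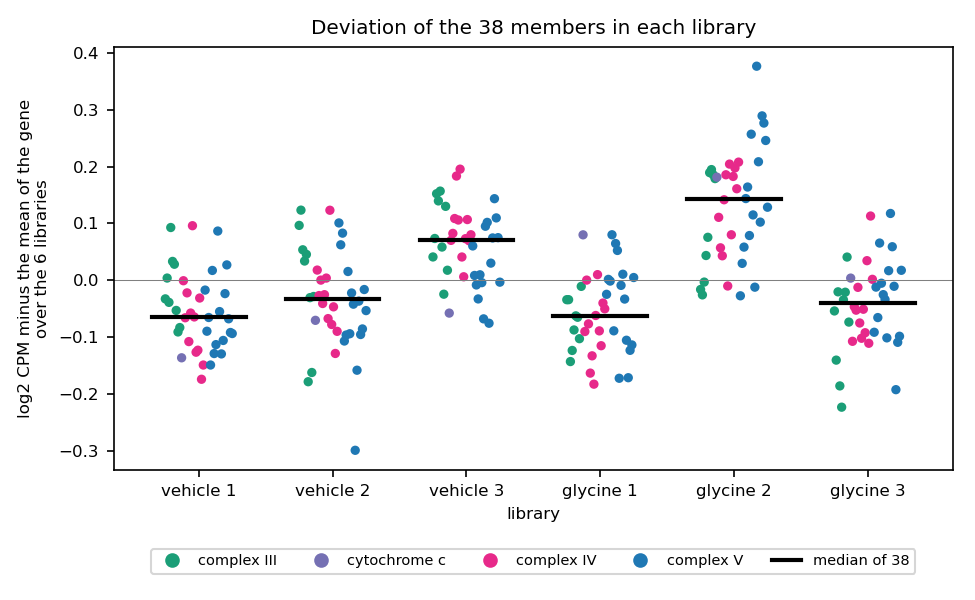
Each point is 1 of the 38 members, drawn as its log2 CPM minus its mean over the 6 libraries, with libraries along the horizontal axis, complexes in colour and a black bar at the median. The median of glycine replicate 2 stands at 0.14 and that of vehicle replicate 3 at 0.072, both above the other 4 libraries.

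Levels were compared between genes only per length, as TPM (counts divided by the exon length that the files give for each gene, then scaled to a common total), with the mean and SD over all 6 libraries. ATP5F1B, the catalytic beta subunit of complex V, was highest at 1111 ± 25.8 TPM (SD, n = 6). It was followed by COX8A at 642 ± 57.6, COX6B1 at 459 ± 29.05 and COX6A1 at 374 ± 29.8, which are supernumerary subunits of complex IV. CYC1 at 359 ± 17.4 and UQCRC1 at 359 ± 10.4 TPM, the highest of complex III, did not differ beyond their spread. The lowest were UQCRB at 33.2 ± 2.58, COX6C at 34.8 ± 3.16, COX7B at 38.2 ± 2.64 and ATP5PO at 40.0 ± 1.93 TPM. UQCRB and COX6C, and COX7B and ATP5PO, did not differ beyond their spread.

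The exon length of the files joins the exons of every annotated transcript of a gene, from 507 bases for COX8A to 10908 for ATP5F1A, and the order of levels depended on it. With the median length of the protein-coding transcripts in GENCODE 29, an alternative added after seeing the data, ATP5F1B stayed highest at 1110 TPM while ATP5F1A rose from rank 17 to rank 2 at 771 TPM. UQCRB moved from rank 38 to rank 25 at 184 TPM and COX8A from rank 2 to rank 13 at 236 TPM. UQCRFS1, the Rieske iron-sulfur subunit, was then lowest at 25.5 TPM. COX6C remained low on both scales, at rank 37 and rank 36, and so did COX7B at 36 and 35. COX6C had 17 pseudogene rows and COX7B 4, and the treatment of reads with several matches is not given. Whether reads were lost to these copies was not tested.

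**Figure D3:**
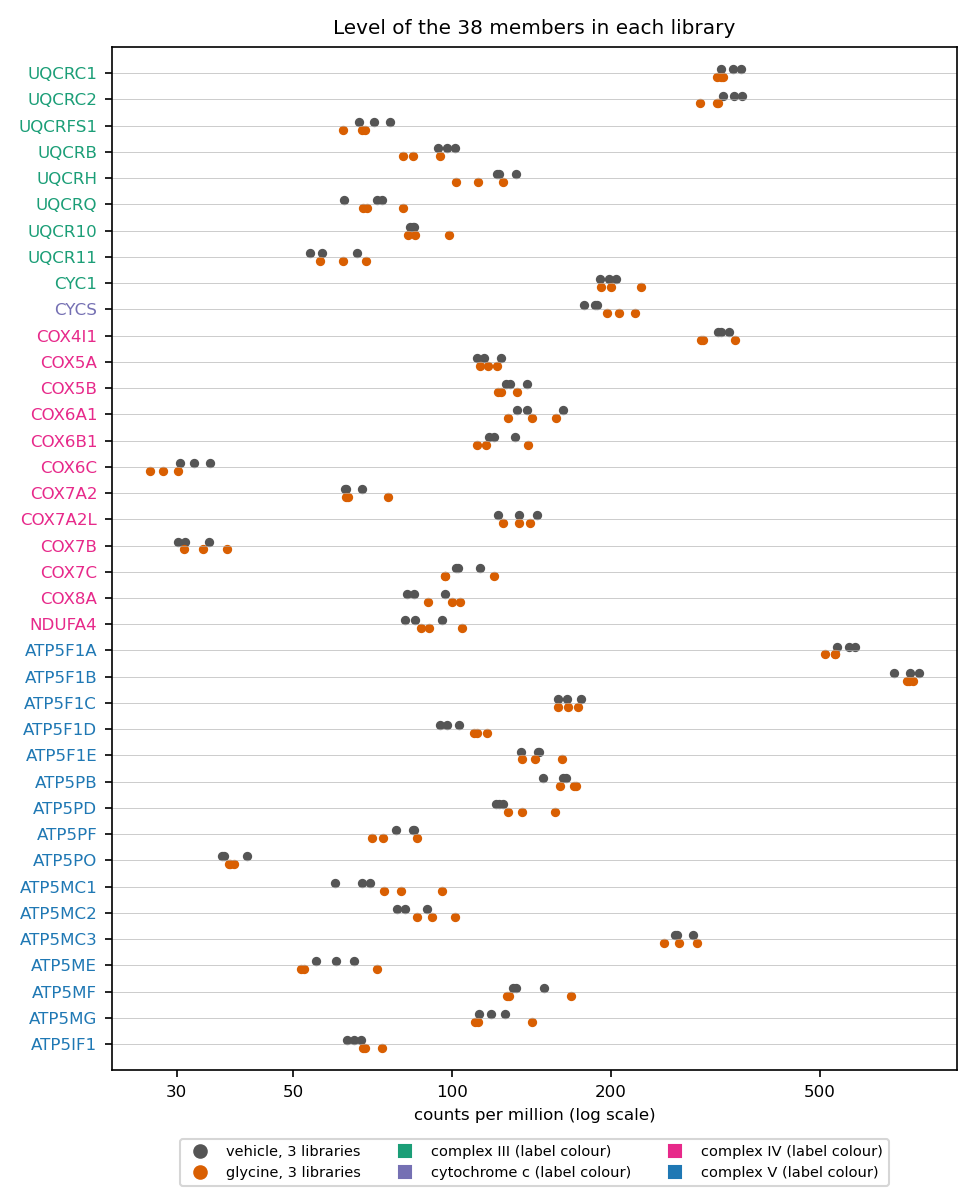
The CPM of each member is plotted on a log axis for the 3 vehicle libraries (grey) and the 3 glycine libraries (orange), with gene names coloured by complex. Positions show counts without correction for length, so that groups can be compared within a gene. The groups of ATP5MC1, CYCS, ATP5F1D, ATP5PD and ATP5IF1 do not overlap, with glycine higher (13.2% of members, 17.2% of all tested genes). Those of UQCRC2, COX6C and ATP5F1A do not overlap, with glycine lower (7.89% of members, 14.4% of all tested genes).

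For complex III, 0 of 9 members were called in either direction. The median log2 change was -0.071, with 5 negative and 4 positive values. The 5 negative ones were the core proteins UQCRC1 (-0.071) and UQCRC2 (-0.13), the iron-sulfur subunit UQCRFS1 (-0.11), the hinge protein UQCRH (-0.15), which helps cytochrome c1 meet cytochrome c, and the small subunit UQCRB (-0.17), which contacts the quinone site. The small subunits UQCRQ (0.064), UQCR10 (0.078) and UQCR11 (0.084) and the heme-bearing CYC1 (0.067) were the positive ones.

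UQCRB read 98.0, 94.1 and 101 CPM with vehicle and 84.3, 94.7 and 80.8 CPM with glycine. Glycine replicates 1 and 3 lay below all vehicle libraries, whereas replicate 2 lay among them. The log2 change was -0.17 ± 0.070 (SE; 95% interval -0.33 to -0.022; adjusted p = 0.127, edgeR). CYC1, cytochrome c1, the heme protein that hands electrons to cytochrome c, read 191, 198 and 205 CPM with vehicle and 201, 229 and 192 CPM with glycine. The groups overlapped, and its interval ran from -0.090 to 0.22, with an adjusted p of 0.604 (edgeR).

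The summed CPM of complex III was 1387 ± 42.5 with vehicle and 1332 ± 73.0 with glycine (SD, n = 3 each). The vehicle libraries lay between 1340 and 1424 and the glycine libraries between 1274 and 1414, so that the groups overlapped. In TPM, which weighs the genes by length, the sums were 1923 ± 53.9 and 1905 ± 57.1.

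CYCS, cytochrome c itself, which also triggers apoptosis when it leaves mitochondria, read 178, 187 and 188 CPM with vehicle and 207, 222 and 197 CPM with glycine. Every glycine library lay above every vehicle library. The log2 change was 0.18 ± 0.065 (SE; 95% interval 0.038 to 0.32), a 1.13-fold difference that did not pass the threshold (adjusted p = 0.0920, edgeR). CYCS had 42 pseudogene rows, the most of any member. All pseudogene rows of the 38 members held 1647 counts against 1409205 in the members, and UQCRFS1, at 3.84%, was the only member with a share above 1%.

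For complex IV, 0 of 12 members were called in either direction, and the median log2 change was -0.0061. Of the 12, 7 were negative and 5 positive. COX4I1, COX5A and COX5B are the largest nuclear subunits, and COX4I1 carries regulatory sites for adenine nucleotides. Their log2 changes were -0.055, 0.0065 and -0.057. The small subunits COX6A1 (-0.022), COX6B1 (-0.0088), COX7C (-0.012), COX7A2 (0.067) and COX7B (0.091) differed from 0 by less than 0.1. NDUFA4, once assigned to complex I and now counted with complex IV, stood at 0.11, and COX7A2L, a relative of COX7A2 that joins complex III to complex IV in supercomplexes, at -0.0033.

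COX4I1 read 319, 324 and 335 CPM with vehicle and 300, 345 and 297 CPM with glycine. The glycine libraries spanned the vehicle libraries, 2 below and 1 above, with an adjusted p of 0.677 (edgeR) and an interval from -0.21 to 0.10. COX6C, a small transmembrane subunit, read 32.4, 30.4 and 34.7 CPM with vehicle and 26.7, 30.1 and 28.3 CPM with glycine. All glycine libraries were lower, by a narrow gap between glycine replicate 2 and vehicle replicate 2. Its log2 change of -0.19 ± 0.075 (SE) did not pass the threshold (adjusted p = 0.108, edgeR), but did when a trend of each library with gene length was removed (log2 change -0.21, adjusted p = 0.0399, edgeR). None of the other 10 alternatives with all libraries called it, nor did any fit without 1 library (adjusted p from 0.0695 to 0.297, edgeR).

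COX8A, the smallest subunit, read 82.0, 84.6 and 97.1 CPM with vehicle and 90.0, 103 and 100.1 CPM with glycine. Vehicle replicate 3 exceeded glycine replicate 1, so the groups overlapped. The log2 change was 0.16 ± 0.078 (SE; 95% interval -0.012 to 0.32; adjusted p = 0.220, edgeR). The exons of another gene on the same strand cover 34.5% of the exon length of COX8A.

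Summed over complex IV, the CPM was 1386 ± 75.3 in the vehicle group and 1382 ± 110 in the glycine group (SD, n = 3 each). The vehicle libraries lay between 1322 and 1469 CPM and the glycine libraries between 1307 and 1509 CPM, with the highest sum in glycine replicate 2.

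Tissue-specific isoforms of complex IV subunits were near the floor of detection. COX6A2 and COX7B2, the first known from heart and skeletal muscle, and COX8C had no count in any of the 6 libraries, which allows at most 0.051 to 0.0943 CPM (3 counts) by counting error alone. COX4I2, linked to hypoxia and lung, reached 0.0313 CPM at most, COX6B2 0.0711 CPM and COX7A1 0.125 CPM. Of the alternative isoforms only NDUFA4L2 (log2 change 0.30, adjusted p = 0.640) and UQCRHL (-0.16, adjusted p = 0.638) passed the filter, and neither was called by edgeR. UQCRHL encodes a protein 96.7% identical to that of UQCRH, so that its counts of 2.28 to 3.93 CPM are uncertain.

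For complex V, 1 of 16 members was called higher and none of the 16 lower. The median of their log2 changes was 0.036, with 10 positive and 6 negative values. The F1 head, which makes ATP in the matrix, comprised ATP5F1A (-0.096), ATP5F1B (0.011), ATP5F1C (-0.0062), ATP5F1D (0.19) and ATP5F1E (0.050). In the peripheral stalk, which holds the head still while the ring turns, ATP5PB stood at 0.078, ATP5PD at 0.19, ATP5PF at -0.10 and ATP5PO at -0.0049. The membrane subunits ATP5ME (-0.032), ATP5MF (0.040) and ATP5MG (0.032), which help dimers of the enzyme shape the cristae, differed from 0 by less than their standard errors. Exons of MYL5 on the opposite strand cover 61.6% of the exon length of ATP5ME, and the strand setting of the counting is not given in the sources used here.

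ATP5MC1 (ENSG00000159199, GRCh38, chr17:48892765-48895871, plus strand) read 67.3, 59.9 and 69.9 CPM with vehicle and 74.2, 95.7 and 79.9 CPM with glycine. Every glycine library lay above every vehicle library, and glycine replicate 2 was the highest. The mean CPM was 65.7 ± 5.22 in the vehicle group and 83.3 ± 11.1 in the glycine group (SD, n = 3 each). The fitted change was 1.27-fold, a log2 change of 0.34 ± 0.091 (SE; 95% interval 0.15 to 0.54; adjusted p = 0.0252, edgeR). All 11 alternatives that kept the 6 libraries also called it, with log2 changes from 0.31 to 0.36. The call was lost without vehicle replicate 1 (log2 change 0.35, adjusted p = 0.0641), without vehicle replicate 2 (0.28, adjusted p = 0.0753), without glycine replicate 2 (0.23, adjusted p = 0.103) and without glycine replicate 3 (0.36, adjusted p = 0.0509), all in edgeR. No exon of another gene overlaps its exons.

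ATP5MC2 read 81.6, 78.7 and 89.7 CPM with vehicle and 85.8, 101 and 91.5 CPM with glycine, and the groups overlapped. Its log2 change was 0.16 ± 0.076 (SE; 95% interval -0.0043 to 0.32; adjusted p = 0.196, edgeR), and 0.091 without glycine replicate 2. ATP5MC3 read 267, 265 and 286 CPM with vehicle and 253, 292 and 270 CPM with glycine, again with overlap, and its log2 change was -0.0074 ± 0.070 (SE; adjusted p = 0.962, edgeR).

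Together the 3 genes of the c ring reached 301 ± 20.9 TPM with vehicle and 334 ± 20.6 TPM with glycine (SD, n = 3 each), with overlapping libraries. ATP5MC1 made up 30.1%, 28.0% and 29.2% of that sum in the vehicle libraries and 32.6%, 34.8% and 32.8% in the glycine libraries. The share of ATP5MC3 was 46.1%, 47.8% and 46.2% with vehicle and 42.8%, 41.0% and 42.7% with glycine. The share of ATP5MC2 lay between 23.9% and 24.7% in all 6 libraries. The shares add up to a fixed total and ATP5MC3 overlapped between the groups in its own CPM, so that its lower share is no separate result. The size of the shares depends on the exon lengths of the files. Over all 6 libraries, ATP5MC1, ATP5MC2 and ATP5MC3 averaged 99.7, 77.3 and 141 TPM with these lengths. With the median length of the protein-coding transcripts they averaged 191, 140 and 417 TPM. The differences between the 3 genes were not tested.

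**Figure D4:**
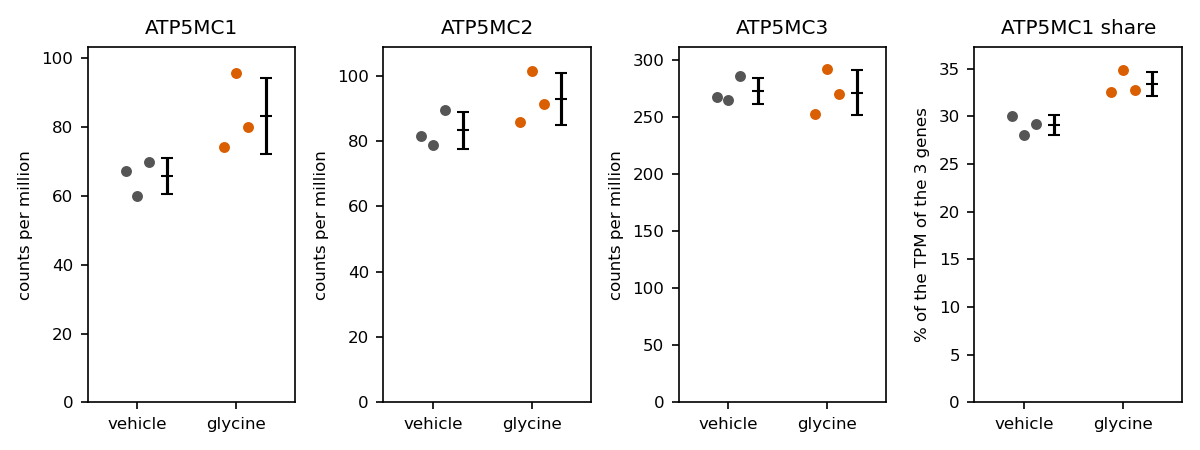
The first 3 panels plot the CPM of ATP5MC1, ATP5MC2 and ATP5MC3 and the last the share of ATP5MC1 in the TPM of the 3 genes, with points for the 3 libraries of each group, in order of replicate number, and a bar for the mean ± SD. In the last panel the glycine libraries lie between 32.6% and 34.8% and the vehicle libraries between 28.0% and 30.1%.

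ATP5F1D, the delta subunit of the central stalk, read 95.02, 97.8 and 103 CPM with vehicle and 111, 116 and 110 CPM with glycine. The groups did not overlap. Its log2 change was 0.19 ± 0.061 (SE; 95% interval 0.061 to 0.32), with an adjusted p of 0.0539 (edgeR), just outside the threshold. It was called with total counts alone as the scaling (adjusted p = 0.0379, edgeR), with a filter of 1 CPM in 3 libraries (adjusted p = 0.0476, edgeR) and without vehicle replicate 3 (adjusted p = 0.0426, edgeR). It was not called in the other 9 alternatives with all libraries or without any 1 of the other 5 libraries (adjusted p up to 0.204, edgeR).

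ATP5PD, subunit d of the peripheral stalk, read 121, 123 and 125 CPM with vehicle and 136, 157 and 128 CPM with glycine. All glycine libraries were higher, and the log2 change of 0.19 ± 0.075 (SE) had an adjusted p of 0.117 (edgeR). Without glycine replicate 2, its highest library, the log2 change was 0.10 (adjusted p = 0.424, edgeR). ATP5IF1, the inhibitor that blocks ATP hydrolysis by complex V when the proton gradient fails, read 63.2, 65.0 and 67.3 CPM with vehicle and 67.7, 73.8 and 68.3 CPM with glycine. Its groups were separated by a narrow gap, and the log2 change of 0.10 ± 0.063 (SE; 95% interval -0.035 to 0.24) was not called (adjusted p = 0.333, edgeR).

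ATP5F1B read 692, 769 and 741 CPM with vehicle and 737, 752 and 730 CPM with glycine, with the glycine libraries inside the range of the vehicle libraries. Its 95% interval ran from -0.14 to 0.16 (adjusted p = 0.939, edgeR). ATP5PO, the stalk subunit known as the oligomycin sensitivity-conferring protein, read 36.6, 37.0 and 40.8 CPM with vehicle and 37.8, 37.7 and 38.5 CPM with glycine. Its interval ran from -0.15 to 0.14 (adjusted p = 0.975, edgeR). Exons of other genes cover 25.4% of its exon length, 19.6% on the same strand.

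The summed CPM of complex V was 2910 ± 94.8 for vehicle and 2953 ± 157 for glycine (SD, n = 3 each). The libraries overlapped, with 2805 to 2989 CPM and 2856 to 3134 CPM. For all 38 members the sums were 5867 ± 213 and 5876 ± 349 CPM, again with overlap.

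Subunits of the same complexes that are not among the members were not called either. The small complex V proteins ATP5MJ (0.12) and ATP5MK (0.057) and the stalk-related DMAC2L (0.094) were not called. Of the 6 subunits of these complexes encoded by the mitochondrial genome, 0 were called in either direction by edgeR. Their log2 changes were 0.030 for MT-CYB, the cytochrome b of complex III, -0.079, -0.066 and 0.074 for MT-CO1, MT-CO2 and MT-CO3, which form the catalytic core of complex IV, and -0.17 each for MT-ATP6 and MT-ATP8 of complex V. The lowest adjusted p was 0.450 (edgeR), and none passed an unadjusted p of 0.05. MT-CO1 read 5401, 7720 and 4876 CPM with vehicle and 5160, 6175 and 5697 CPM with glycine. Vehicle replicate 2 was highest for each of the 6, and their intervals, out to -0.47, were wider than those of the nuclear members.

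Of 10 assembly factors of complexes III and V, 3 were called higher with glycine and 0 lower (6.71% and 6.54% of all tested genes), and all 3 act on complex III. LYRM7, a chaperone of the iron-sulfur protein before it is inserted into complex III, read 14.8, 14.6 and 15.7 CPM with vehicle and 20.8, 19.0 and 18.7 CPM with glycine. Its groups did not overlap, and its log2 change of 0.37 ± 0.077 (SE; adjusted p = 0.00680, edgeR) was called without each library in turn. BCS1L, the translocase that inserts the iron-sulfur protein, read 31.7, 35.6 and 33.0 CPM with vehicle and 38.3, 41.3 and 38.5 CPM with glycine. Its log2 change was 0.24 ± 0.069 (SE; adjusted p = 0.0402, edgeR).

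UQCC2, needed for the synthesis and assembly of cytochrome b, read 52.0, 53.6 and 59.3 CPM with vehicle and 62.1, 83.0 and 66.5 CPM with glycine. It had no overlap between groups and a log2 change of 0.36 ± 0.097 (SE; adjusted p = 0.0261, edgeR). The call of UQCC2 was lost without vehicle replicate 1 (adjusted p = 0.111), vehicle replicate 2 (0.0603) or glycine replicate 2 (0.101, with the log2 change at 0.23), and that of BCS1L without any 1 library other than vehicle replicate 2 (adjusted p from 0.0797 to 0.166, edgeR). The iron-sulfur protein itself, UQCRFS1, was at -0.11 and not called. The other 7 factors were not called, with UQCC1 at 0.11, UQCC3 at 0.16, TTC19 at 0.10, ATPAF1 at 0.18, ATPAF2 at -0.10, TMEM70 at -0.048 and OXA1L at 0.033. The first 3 serve complex III, the next 3 complex V, and OXA1L inserts proteins into the inner membrane.

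Of 9 transcription factors and coactivators of nuclear respiratory genes, 2 were called lower and 0 higher (6.54% and 6.71% of all tested genes). PPARGC1A, the PGC-1 alpha coactivator of mitochondrial biogenesis, read 12.3, 10.2 and 11.1 CPM with vehicle and 7.86, 8.05 and 9.03 CPM with glycine. No library overlapped, and the log2 change was -0.43 ± 0.099 (SE; adjusted p = 0.0125, edgeR). ESRRA, the nuclear receptor ERR alpha, a partner of that coactivator, read 55.8, 52.9 and 59.8 CPM with vehicle and 47.1, 47.7 and 49.5 CPM with glycine. Its log2 change was -0.22 ± 0.067 (SE; adjusted p = 0.0417, edgeR).

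The call of PPARGC1A was lost by a small margin without vehicle replicate 1 (adjusted p = 0.0504) or glycine replicate 2 (0.0506, edgeR). That of ESRRA was lost without any 1 library other than vehicle replicate 2 (adjusted p from 0.0714 to 0.132), and with total count scaling (0.0674) or no filter on low counts (0.0554, edgeR). The factors whose letters were searched in the promoters were not called, with NRF1 at 0.070, GABPA at -0.090, its partner GABPB1 at 0.18 and YY1 at -0.070. PPARGC1B (-0.085), PPRC1 (0.083) and TFAM (0.031), the activator of mitochondrial DNA transcription, were not called either.

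**Figure D5:**
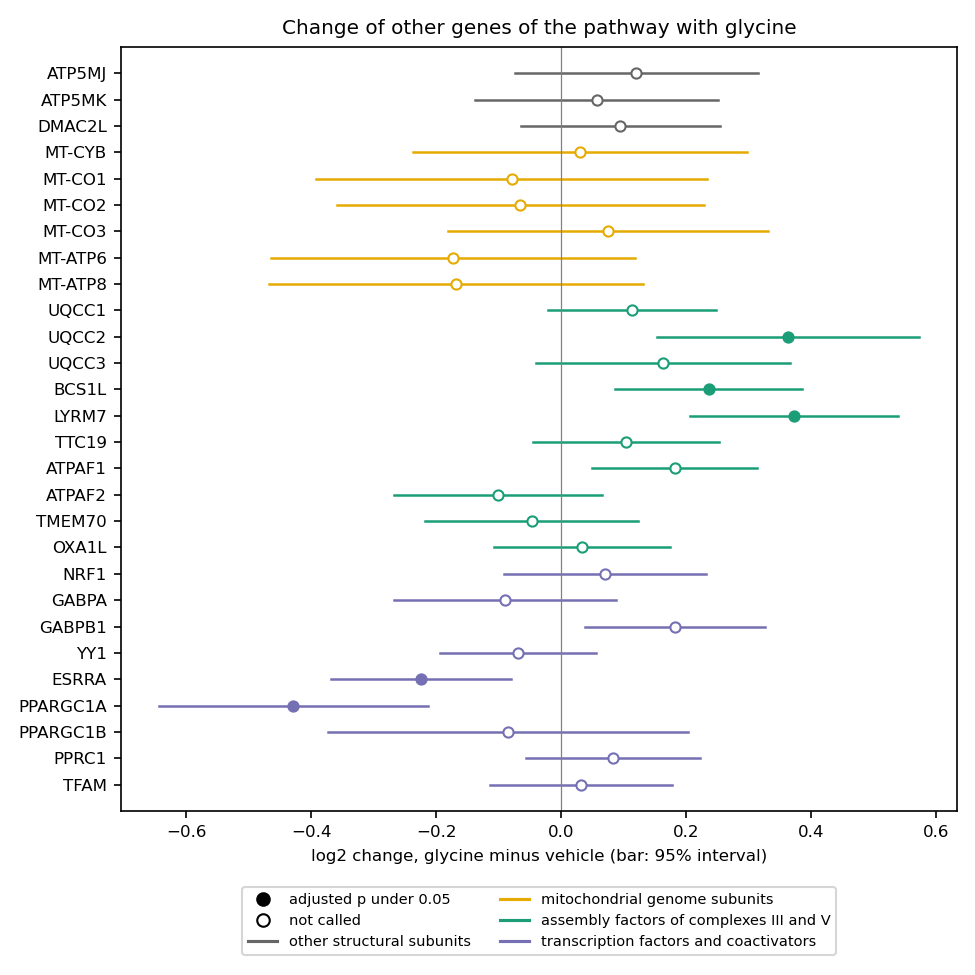
The log2 change (glycine minus vehicle) with its 95% interval is plotted for other structural subunits, subunits of the mitochondrial genome, assembly factors and transcription factors, and filled points have an adjusted p under 0.05 (edgeR). The filled points are UQCC2, BCS1L and LYRM7 on the right, at 0.36, 0.24 and 0.37, and ESRRA and PPARGC1A on the left, at -0.22 and -0.43.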

How the data were processed

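RNA of 6 HepG2 cultures was sequenced, 3 with glycine and 3 with vehicle, grouped by their labels. The deposited files, 1 per library, give raw counts per gene, in whole numbers. Per the submitters' processing notes, Trimmomatic 0.36, STAR 2.5.2b, featureCounts (Subread 1.5.2) and GRCh38 were used. The annotation release, strand setting and treatment of reads with several matches are not given in the sources used here. All members had the same coordinates in GENCODE 29.

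Counts were tested over 15492 genes with edgeR 4.0.16 (quasi-likelihood, trimmed mean of M values, filterByExpr at its defaults, two-sided, Benjamini-Hochberg, threshold 0.05). CPM used the scaled library sizes. The standard error was the log2 change divided by the square root of F. Floors cover counting error only, as no use of molecular identifiers is stated. The test was checked on simulated data.

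Members and lists were chosen with earlier results of these data known. Values in each library are given for members called, the 3 largest uncalled changes, the highest and lowest TPM of each complex and 6 members chosen by role, and for partner genes called. The other members are given by their changes. Alternatives were other scalings and filters, DESeq2 1.42.0, limma 3.58.1 with voom, removal of a gene length trend (loess, span 0.5), a replicate block, pseudogene counts added to members, and leaving out each library.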

Additional observations from a re-analysis of the deposited data

How the results depend on the processing

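The median log2 change of the members moved by less than the spread of that median between replicates (0.0944) under every alternative. That spread is wide beside the main median of 0.0090, whose sign was not stable. The median was -0.0012 with the gene length trend removed and -0.0018 with the block added. Leaving out each library in turn, it ran from -0.034 (without vehicle replicate 1) to 0.059 (without vehicle replicate 3). The number of members called higher was 2 with total count scaling and 2 with the 1 CPM filter, and 1 member was called lower after removal of the gene length trend, in place of 1 higher and 0 lower. Leaving out each library in turn gave 0 to 2 members called higher, 1272 to 1936 genes called in all, 1 or 2 assembly factors called higher and 0 to 2 transcription factors called lower. The last count was 1 with total count scaling, 1 with no filter on low counts and 1 with the replicate block. Libraries with the same number did not deviate together (correlations -0.058, -0.027 and -0.003). The numbers thus show no pairing, but 3 libraries per group are too few to decide whether cultures were paired. With the block on replicate number, 1 member was called higher, 0 lower and 1784 genes in all. BCS1L and ESRRA were not called with it (adjusted p = 0.0560 and 0.0656, edgeR). Each vehicle library correlated best with a glycine library of another number (replicate 2 with glycine 1 at 0.214, 1 with 3 at 0.214 and 3 with 2 at 0.18). Near-zero changes reversed sign. With the gene length trend removed, ATP5F1B was at -0.0153 and ATP5MC3 at 0.000317, and with the block added ATP5F1B was at -0.0141. With total count scaling, ATP5PO was at 0.00915 and ATP5MC3 at 0.00635. Leaving out each library in turn gave -0.0104 to 0.109 for CYC1, -0.0404 to 0.0471 for ATP5F1B, -0.0445 to 0.0471 for ATP5PO and -0.0621 to 0.0313 for ATP5MC3. The cause of these differences was not tested. The intervals of the members extended a median of 0.16 on the log2 scale to each side of the estimate. That width is not a limit of detection. The intervals of 6 members left out 0, while 1 member was called after adjustment.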
